A study of Rattus norvegicus with 24 samples.

Results

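The annexin family was followed on 24 two-colour cDNA arrays of rat kidney, on which each spot gives the log ratio of 2 hybridised RNAs. Members were chosen by gene symbol, as every probe whose platform symbol was Anxa followed by a number. The platform listed 10 such probe IDs for 5 genes, and 5 of these probes, 1 per gene, held values, out of 1561 probes with values among 3502 listed. The measured members were Anxa1, Anxa2, Anxa3, Anxa4 and Anxa6, of 12 protein-coding annexin genes in the RefSeq table of rat assembly GRCr8, and the other annexins were not analysed here. Anxa2, Anxa4 and Anxa6 had a value on all 24 arrays, Anxa1 on 23 and Anxa3 on 21.

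The rats were of strain 13 or strain SS and were on a diet named HS or LS for 2 weeks. From what is known of the study, SS is the Dahl salt-sensitive rat, 13 is an SS line into which the Brown Norway chromosome 13 was bred, and HS and LS are high and low salt. Strain 13 therefore shares the SS background outside that chromosome, and 0 of the 5 measured annexin genes lie on chromosome 13. The 4 comparisons were HS against LS in strain 13, HS against LS in SS, 13 against SS on HS, and 13 against SS on LS, each with 3 replicates hybridised on a forward and a dye-swap array. The sources used here do not state the animals' age or whether a replicate was 1 animal or a pool, so a p-value here covers only sample-to-sample spread, part of which could be technical. In the main fit that spread was estimated per probe over all 4 comparisons, so a p does not rest only on the SD printed beside it. Of the 6 SS diet titles, 5 write no strain and were read as SS because the other diet titles write 13. The sixth opens like those of strain 13, but its channel text names SS.

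Annexins are proteins that bind membrane phospholipids when calcium rises, through a conserved core of repeated domains, and differ in their amino-terminal tails. The tails carry binding sites for S100 proteins and phosphorylation sites for kinases such as protein kinase C. Family members take part in vesicle traffic, membrane repair, fibrinolysis at the cell surface and the limiting of inflammation, and in the kidney they are found in tubular epithelium and in other cell types.

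The stretch just upstream of the start is shown for the 4 measured annexins with an entry in the RefSeq promoter table (GRCr8), because Anxa1 and Anxa2 are compared with each other below. Each sequence is the 150 bases before the annotated start, 5′ to 3′ on the gene's strand, with matches to the motifs searched in capitals. They lie at chr1:227303733-227303882 (- strand), chr8:78986102-78986251 (+ strand), chr14:13085598-13085747 (- strand) and chr4:120798514-120798663 (- strand).
Anxa1: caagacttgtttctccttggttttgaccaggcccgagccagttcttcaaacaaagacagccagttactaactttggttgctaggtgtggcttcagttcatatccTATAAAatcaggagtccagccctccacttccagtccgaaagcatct
Anxa2: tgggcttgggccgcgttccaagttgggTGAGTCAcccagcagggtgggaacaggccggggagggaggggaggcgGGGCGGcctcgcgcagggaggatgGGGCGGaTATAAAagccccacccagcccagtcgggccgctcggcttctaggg
Anxa3: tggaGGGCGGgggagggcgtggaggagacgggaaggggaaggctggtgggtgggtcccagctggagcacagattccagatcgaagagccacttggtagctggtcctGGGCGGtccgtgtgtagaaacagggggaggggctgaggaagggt
Anxa4: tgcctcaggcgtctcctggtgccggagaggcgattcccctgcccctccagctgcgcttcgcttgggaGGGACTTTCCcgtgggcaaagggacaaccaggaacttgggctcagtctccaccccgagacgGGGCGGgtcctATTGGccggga
The TATA box, searched as TATAAA on both strands like every motif here, stood 46 to 41 bases before the start of Anxa1 and 45 to 40 bases before that of Anxa2. Of 33469 windows of the same length 8.0% hold it. The AP-1 motif TGAGTCA was found in the Anxa2 window, and is in 2.38% of windows. The kappa B consensus of NF-kappa B, found in 0.0478% of windows, stood 83 to 74 bases before the start of Anxa4, where it is the first run of capitals. The GC box GGGCGG, in 26.0% of windows, had 2 copies in Anxa2, 2 in Anxa3 and 1 in Anxa4, none of which overlapped another match. The CCAAT box, in 23.5% of windows, was found in Anxa4 on the minus strand, where the printed letters are its reverse complement. The glucocorticoid receptor half-site AGAACA, in 10.8% of windows, was in none of the 4. The bases were 46.7% G or C in Anxa1, against 70.7% in Anxa2, 65.3% in Anxa3 and 66.7% in Anxa4. A match describes these letters only.

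Values are the deposited log ratios, whose base is not stated, so no fold is given. A positive value means HS over LS or 13 over SS. This direction is likely, not certain. Of the 13 titles that name the dyes, only 1 is of a diet array. Those of strain arrays give the dyes in opposite order on forward and dye-swap arrays. The dye-swap values were used without a change of sign, taken as already turned on deposit, which the sources used here do not state. Over probes, forward minus dye-swap values of different comparisons correlated at a median of 0.466, and forward plus dye-swap values at 0.238. A dye difference common to all arrays enters the first if the dye-swap values were turned, the second if not. Every sign could also be turned together. Arrays held 726 to 1402 probes with values, and their number limits the precision. Segment markers of the labelled tissue were measured on most arrays, Umod of the thick ascending limb, Aqp3 of the collecting duct and Lrp2 of the proximal tubule on all 24. No annexin passed the adjusted threshold of 0.05 in any of the comparisons. Anxa1 had the mean log ratio largest in size in both diet comparisons, where it was above 0, and on LS, where it was below 0.

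**Figure D1:**
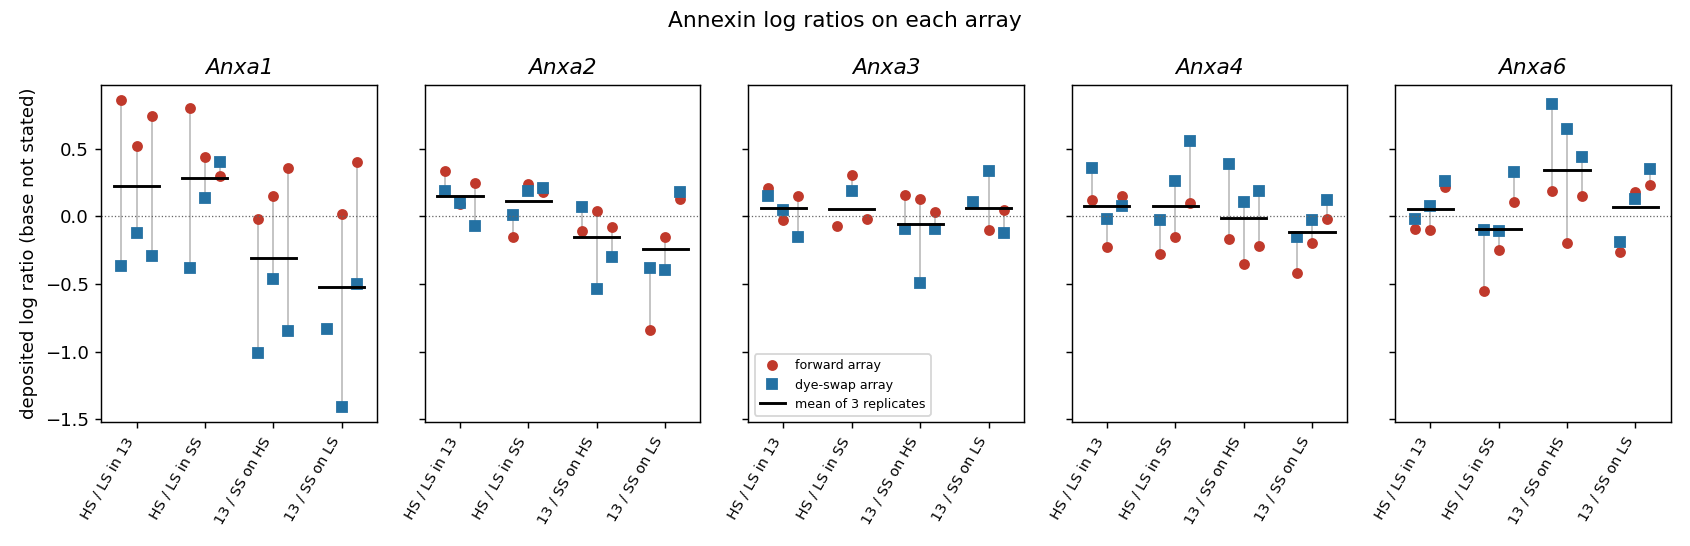
Deposited log ratio (vertical axis, base not stated) of each annexin on every array, by comparison (horizontal axis). Circles are forward arrays, squares dye-swap arrays, grey lines join the arrays of 1 replicate and black bars are the means of 3 replicates. In Anxa1 the circles lie above the squares in 10 of 11 replicates with both.

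The diet comparison in strain 13 addresses the response to salt in the strain with the substituted chromosome. Anxa1, also called lipocortin 1, is a glucocorticoid-regulated protein that restrains leukocyte recruitment through formyl peptide receptors. Its log ratios on the forward arrays of the 3 replicates were 0.86, 0.52 and 0.74, and on the dye-swap arrays -0.37, -0.12 and -0.29. Averaged per replicate these were 0.245, 0.2 and 0.225, all above 0, with a mean of 0.22 ± 0.02 (SD, n = 3, limma adjusted p = 0.619). The replicate means were close to each other although the forward and dye-swap arrays had opposite signs in each replicate.

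Anxa2, which forms a tetramer with S100a10 and binds plasminogen and its activator at the cell surface, had replicate means of 0.265, 0.095 and 0.09 in strain 13. All 3 were above 0, and their mean was 0.15 ± 0.10 (SD, n = 3, limma adjusted p = 0.728). Anxa3, known from the granules of human neutrophils, had 0.18, 0.01 and 0, which leaves 1 replicate clearly above 0. Anxa4, abundant in secretory and renal epithelia, had 0.24, -0.125 and 0.115, and Anxa6, which has a duplicated core and is linked to endosomes and membrane cholesterol, had -0.055, -0.01 and 0.24. The replicates of both lay on either side of 0. The means of all 5 annexins were above 0, with a median of 0.08 against 0.01 over the 1287 probes tested. In strain 13, 0 of 5 annexins and 0 of 1287 probes (0%) were called, and at an unadjusted p below 0.05 there were 0 annexins and 119 probes (9.25%). Anxa1 and Anxa2 were above 0 in 3 replicates, as were 15.7% of the probes with 3 values, and 0 annexins were below 0 in 3, against 15.8%. In the same replicates the mean of 9 proximal tubule markers was -0.21, -0.27 and -0.33 and that of 6 fibroblast and matrix markers 0.19, 0.20 and 0.32. Each such mean is over the markers with a value in all 12 pairs, which leaves out Fn1 and Lum of the 8 measured matrix markers. In these bulk samples fewer cells of a type and less RNA per cell cannot be told apart, and the part of cell makeup in any annexin value was not tested.

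The diet comparison in SS asks the same question in the salt-sensitive strain. Anxa1 had 0.8, 0.44 and 0.3 on the forward arrays and -0.38, 0.14 and 0.4 on the dye-swap arrays. Its replicate means of 0.21, 0.29 and 0.35 were all above 0, with a mean of 0.28 ± 0.07 (SD, n = 3, unadjusted p = 0.0397 in limma's fit, adjusted p = 0.233). Of the 6 arrays 5 were above 0, and replicate 3 was the one in which the forward array was not the higher of the pair. Anxa2 had replicate means of -0.07, 0.215 and 0.195, so that replicate 1 stood apart from the other two (0.11 ± 0.16, adjusted p = 0.621 in limma's fit).

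Anxa3 had -0.07, 0.25 and -0.02 in SS, the first and the last from a forward array alone. Anxa4 had -0.155, 0.055 and 0.33, and Anxa6 had -0.325, -0.18 and 0.22. In both, replicate 1 was the lowest and replicate 3 the highest. Neither mean was larger in size than the SD of its replicates (adjusted p = 0.719 and 0.695 in limma's fit). In SS 0 of 5 annexins were called, against 37 of 1310 probes (2.82%). At an unadjusted p below 0.05 there was 1 annexin, Anxa1, against 19.5% of probes, and Anxa1 was the 1 annexin above 0 in 3 replicates, against 22.1% of probes. Below 0 in 3 replicates were 0 annexins, against 19.5%. The matrix markers had means of 0.27, 0.72 and 0.73 in these replicates and the proximal tubule markers 0.23, -0.28 and -0.27. Outside these means, Fn1 had -0.64, -0.57 and 0.33 and Lum -0.13, 0.19 and 0.28. Anxa2 had the same split, with replicate 1 apart, and the part of cell makeup in it was not tested.

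The strain comparison on HS asks how 13 differs from SS under the high salt diet. Anxa1 had -0.02, 0.15 and 0.36 on the forward arrays and -1.01, -0.46 and -0.85 on the dye-swap arrays. Its replicate means were -0.515, -0.155 and -0.245, all below 0, with a mean of -0.31 ± 0.19 (SD, n = 3, unadjusted p = 0.0289 in limma's fit, adjusted p = 0.164). The dye-swap arrays were all below 0, while the forward arrays had a mean of 0.16. Anxa6 had 0.19, -0.2 and 0.15 on the forward arrays and 0.83, 0.65 and 0.44 on the dye-swap arrays. Its replicate means of 0.51, 0.225 and 0.295 were all above 0, with a mean of 0.34 ± 0.15 (SD, n = 3, unadjusted p = 0.0138 in limma's fit, adjusted p = 0.119). Its direction was opposite to that of Anxa1 on this diet, and its level above 0 came mostly from the dye-swap arrays, whose mean was 0.64, against 0.05 on the forward arrays.

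On HS, Anxa6 passed with the orientation fitted as a term for each probe, a setting chosen after seeing the data (0.34, adjusted p = 0.0176 in limma's fit), with a random block for text shared in the titles (0.37, adjusted p = 0.0298) and on the dye-swap arrays alone (0.64, adjusted p = 0.00164). The orientation fit estimated the correlation within RNA pairs at -0.0288, so it counts the 2 arrays of a pair as nearly independent. The random block had an estimated correlation of -0.322. A negative block correlation lowers the error of a mean whose replicates share a block, as some do on HS, so that pass is not further support. Over the alternatives for Anxa6 the adjusted p ranged from 0.00164 to 0.858. Anxa2 had replicate means of -0.02, -0.25 and -0.19 on HS, all below 0, with a mean of -0.15 ± 0.12 (SD, n = 3, limma adjusted p = 0.473). Anxa3 had 0.035, -0.18 and -0.03 and Anxa4 had 0.11, -0.12 and -0.015, on either side of 0. In this comparison 0 of 5 annexins were called, against 81 of 1350 probes (6%), and at an unadjusted p below 0.05 there were 2 annexins, Anxa1 and Anxa6, against 23.1% of probes. Anxa1 and Anxa2 were below 0 in 3 replicates, as were 20% of probes, and Anxa6 above 0, as were 28.3%. The proximal tubule markers had means of -0.71, -0.11 and -0.39 in these replicates, in the same order as Anxa1. Among them Fbp1 had -0.12, -0.265 and -0.055, in another order. The means of the matrix markers, -0.14, -0.54 and -0.34, were in the order of Anxa2 and not that of Anxa1. Col1a1, Col3a1, Timp1, Dcn and Pdgfra kept that order, while Vim had -0.28, -0.475 and -0.255, in another order. Outside the matrix mean, Lum had -0.025, 0.17 and 0.29, and Fn1 had 0.26 and -0.485 in replicates 2 and 3. The means of 3 muscle markers, -0.22, -0.40 and -0.29, were also in the order of Anxa2, but the single markers differed. Tagln had -0.18, -0.65 and -0.425, in the order of Anxa2. Tnnt2 had -0.52, -0.44 and -0.485 and Acta2 0.035, -0.11 and 0.045, in other orders. Outside the muscle mean, Myh11 had 0.07, -0.11 and -0.37, and Tpm2 had -0.21 and -0.285 in 2 replicates. The 4 collecting duct markers had means of 0.44, 0.33 and 0.31. The part of any of these in the annexin values was not tested.

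The strain comparison on LS asks how 13 differs from SS under the low salt diet. Anxa1 had 0.02 and 0.4 on the forward arrays of replicates 2 and 3, no value on that of replicate 1, and -0.83, -1.41 and -0.5 on the dye-swap arrays. Its replicate means were -0.83, -0.695 and -0.05, with a mean of -0.53 ± 0.42 (SD, n = 3, unadjusted p = 0.00113 in limma's fit, adjusted p = 0.0904). This was the 12th smallest p of 1229 probes and the largest annexin log ratio in size. The main fit used the same standard error of 0.12 for Anxa1 in every comparison, though its replicates spread most on LS. The first of these replicate means rests on the dye-swap array alone, and with replicates that have both orientations only, a setting chosen after seeing the data, the mean was -0.37 (adjusted p = 0.115 in limma's fit). Without replicate 3 it was -0.76 and passed (adjusted p = 0.00685), and without replicate 1 it was -0.37 (adjusted p = 0.387). It also passed with arrays scaled to the same spread (adjusted p = 0.0499 in limma's fit), with probes measured in all 12 pairs (0.0473), with the random block and its estimated correlation of -0.322 (0.0296) and on the dye-swap arrays alone (0.0165). The block joins replicates 1 and 2 by the text of their dye-swap titles, while the forward title of replicate 1 carries other text. Replicate 3 shares its text with replicate 3 on HS. A negative block correlation lowers the error of a mean whose replicates share a block, so that pass is not further support. On the forward arrays alone Anxa1 was 0.21, above 0 (adjusted p = 0.44 in limma's fit), and over its alternatives the adjusted p ranged from 0.00685 to 0.44.

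Anxa2 had replicate means of -0.61, -0.275 and 0.155 on LS, in the same order as Anxa1 but with replicate 3 above 0 (-0.24 ± 0.38, SD, n = 3, limma adjusted p = 0.257). Anxa4 had -0.285, -0.115 and 0.05, again lowest in replicate 1 and highest in replicate 3. Anxa6 had -0.225, 0.155 and 0.29, in that order too, while Anxa3 had 0.11, 0.12 and -0.035. The replicates of Anxa2, Anxa3, Anxa4 and Anxa6 lay on either side of 0. On LS 0 of 5 annexins and 0 of 1229 probes (0%) were called, and at an unadjusted p below 0.05 there was 1 annexin, Anxa1, and 268 probes (21.8%). Anxa1 was below 0 in 3 replicates, as were 17.6% of probes, and 0 annexins were above 0 in 3, against 26.5%. The proximal tubule markers had means of -0.32, -0.14 and -0.41 here, in another order than Anxa1.

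The difference between the strains in the diet change, 13 minus SS, was estimated from the diet and strain arrays together. It was 0.08 for Anxa1, with a 95% interval of -0.19 to 0.35, and 0.06 for Anxa2, with -0.19 to 0.32. Anxa6 had 0.21, with an interval of -0.05 to 0.47 (adjusted p = 0.395 in limma's fit), from replicate values of 0.50, 0.12 and 0.01. Without replicate 1 it was 0.066, so its size rested on that replicate. Anxa3 had -0.06 and Anxa4 0.05. Of the 5 annexins 0 were called, against 5 of 1164 probes (0.43%), or 8 with the replicate number as a block, and 0 had an unadjusted p below 0.05, against 15.6% of probes. Some of these estimates share RNAs, so their p-values may be too low, and an interval that spans 0 does not show that the strains respond alike.

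**Figure D2:**
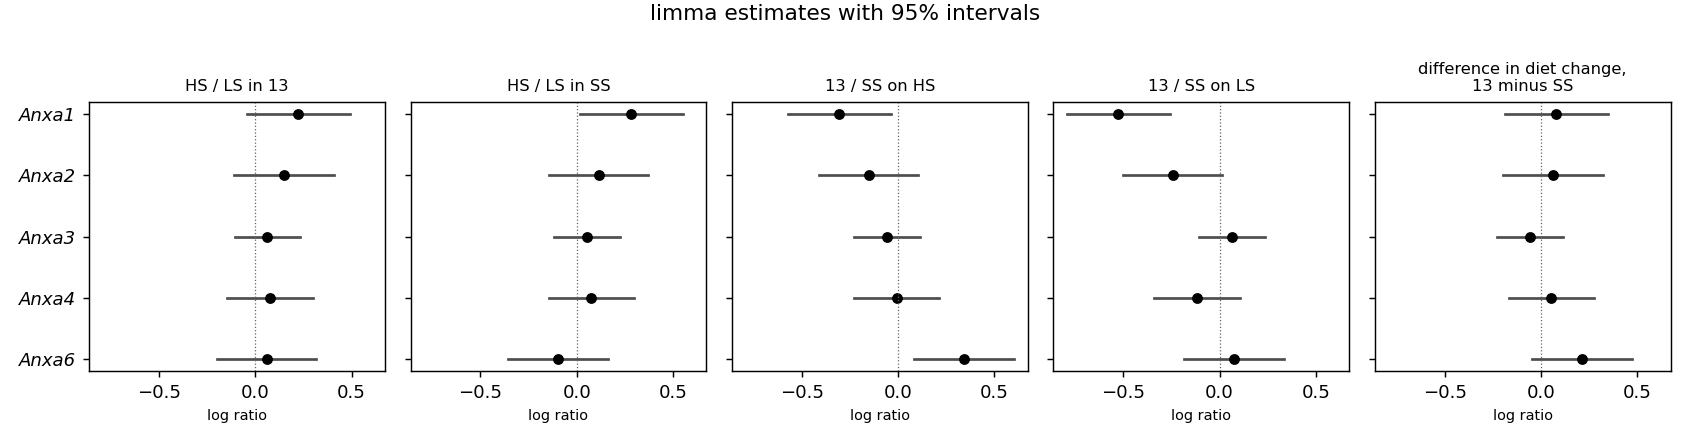
Fitted log ratio (horizontal axis, base not stated) of each annexin in each comparison, with lines for the 95% intervals of the limma fit. The Anxa1 interval on LS runs from -0.79 to -0.26 and that of Anxa6 on HS from 0.08 to 0.60.

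Anxa1 had the highest forward minus dye-swap difference of the probes compared. This was noticed in the values and is given as a description. The forward log ratio of Anxa1 was the higher in 10 of 11 replicates, by a median of 0.99, the highest of 956 probes with both orientations in at least 9 replicates. The next highest was 0.825, the lowest was -1.385, larger in size than that of Anxa1, and the 5th and 95th percentiles were -0.44 and 0.48. The mean of Anxa1 over forward arrays against that over dye-swap arrays was 0.71 against -0.26 in strain 13, 0.51 against 0.05 in SS, 0.16 against -0.77 on HS and 0.21 against -0.91 on LS. The sign of its mean thus depended on the orientation in 3 of the 4 comparisons. Each replicate averages both orientations, except replicate 1 on LS. A dye difference common to all arrays cancels in such a mean only if the dye-swap values were deposited already turned. If they were not, the mean would keep it. The cause of the difference was not tested.

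The other annexins differed less between orientations. Anxa4 and Anxa6 were lower on the forward array in 11 of 12 replicates each, by medians of -0.26 and -0.16, both between the percentiles given above. Anxa3 was higher on it in 7 of 9 replicates, by a median of 0.12, and Anxa2 in 6 of 12, by 0.02. Anxa2, with a value on every array, had the smallest median difference of the 5.

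**Figure D3:**
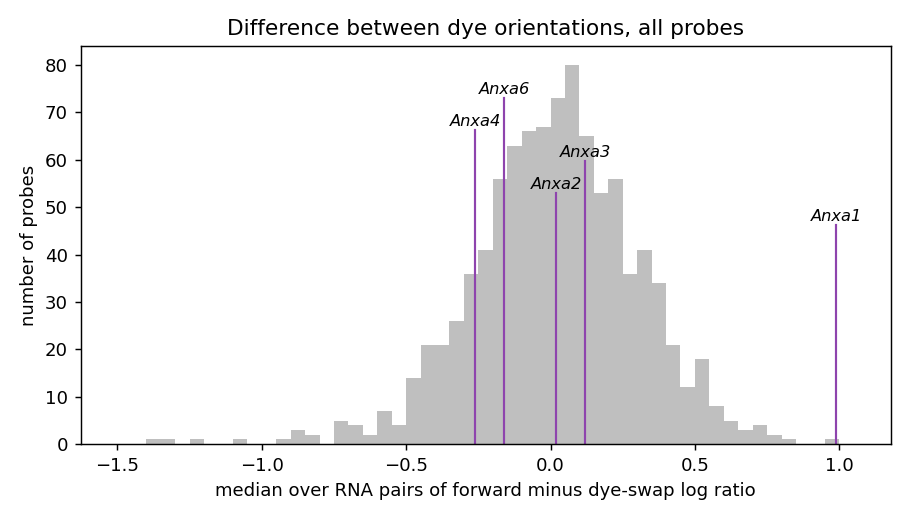
Number of probes (vertical axis) by the median over replicates of the forward minus the dye-swap log ratio (horizontal axis), for 956 probes. Lines mark the annexins. Anxa1, at 0.99, lies at the right end of the distribution, and the other members lie between -0.26 and 0.12.

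Anxa1 and Anxa2 varied together over the 12 RNA pairs, with Pearson's r = 0.84. The diet pairs and strain pairs form separate groups of values, so that r within them is the fairer description, and it was 0.58 over the 6 diet pairs and 0.72 over the 6 strain pairs. In replicate 1 on LS, the lowest pair for both genes, the Anxa1 value rests on the dye-swap array alone. Without the 2 pairs farthest from the median of Anxa1, r over all other pairs was 0.63. Anxa2 and Anxa4 had r = 0.79 over all pairs, 0.76 within diet pairs and 0.93 within strain pairs. Anxa1 and Anxa4 had r = 0.56 over all pairs, 0.76 within diet pairs and 0.56 within strain pairs, and 0.23 without the 2 pairs farthest from the median of Anxa1. The median r of the 10 annexin pairs was 0.17, with 7 above 0, against -0.0015 over all pairs of 862 named probes, whose quartiles were -0.28 and 0.29. The pairs share RNAs between comparisons, so no p is given.

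**Figure D4:**
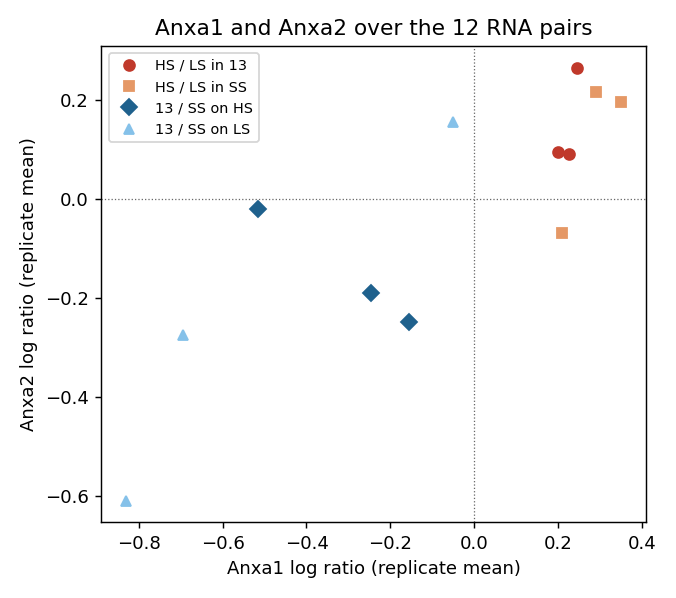
Replicate means of Anxa2 (vertical axis) against Anxa1 (horizontal axis), both as log ratios, for the 12 RNA pairs, with symbols for the 4 comparisons. The 6 diet pairs lie at Anxa1 values of 0.2 to 0.35 and the 6 strain pairs at -0.83 to -0.05. The Anxa1 value of -0.83 rests on a dye-swap array alone.

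The 3 probes most like each annexin were found by Pearson's r over the same 12 pairs among 861 named probes. This r pools the diet and strain pairs, so a gap between their means can raise it. The highest r of probes outside the family was not computed for comparison. For Anxa1 they were Nedd8 (0.86), Tcp1 (0.85) and Anxa2 (0.84). For Anxa2 they were Tcp1 (0.90), Ctsh (0.90) and Dcn (0.88), and for Anxa4 Col5a2 (0.90), Gnai2 (0.87) and Arl1 (0.85). Tcp1 thus stood among the 3 nearest of both Anxa1 and Anxa2. As these genes had r = 0.84 with each other, that is not a separate observation. For Anxa3 they were Parp1 (0.84), Lxn (0.82) and Tsc2 (0.80), and for Anxa6 Id3 (0.92), Ak3 (0.87) and Plau (0.85).

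Genes that act with annexins were read from lists too short for a count of 0 to stand apart from all probes, of which 0% to 6% were called per comparison. Of 5 S100 genes measured, 0 were called in any comparison. S100a11, a partner of Anxa1, had replicate means of 0.235, 0.3 and 0.385 in SS (0.31 ± 0.08, SD, n = 3, limma adjusted p = 0.0576), all above 0, as were those of Anxa1. For 13 against SS on LS it had 0.18, 0.18 and 0.31 (0.22 ± 0.08, SD, n = 3, limma adjusted p = 0.128), all above 0, where those of Anxa1 were below 0. S100a10, the partner of Anxa2, had 0.155, 0.235 and 0.13 for HS against LS in SS (0.17 ± 0.05, SD, n = 3, limma adjusted p = 0.189). For 13 against SS on LS it had -0.04, 0.07 and 0.145. For HS against LS in strain 13, S100a11 and S100a10 had means of 0.04 and 0.05. Over the S100 list the median was 0.10 in SS and 0.04 in strain 13, against -0.0067 and 0.01 over all probes tested.

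The protein kinase C and calmodulin list had 5 measured genes, Prkcb, Prkcz, Camk2b, Camk2d and Camk2g, and no calmodulin gene itself. Of these, 1 passed for HS against LS in SS and 1 for 13 against SS on HS, in both cases Prkcb. It is a kinase of the family that phosphorylates annexin tails. Prkcb had replicate means of 0.55, 0.635 and 0.635 for HS against LS in SS (adjusted p = 0.0105 in limma's fit), and -0.47, -0.245 and -0.55 for 13 against SS on HS (adjusted p = 0.0383). Both comparisons hold SS on HS and may share its RNAs. Both calls were lost in some settings, since 0 probes were called in SS without replicate 2, without replicate 3 or with the group fitted alone, and 0 on HS without replicate 1 or with the group fitted alone. In strain 13 Prkcb had -0.26, 0.385 and 0.205 for HS against LS (adjusted p = 0.774 in limma's fit). Of 3 tested genes of the phospholipase A2 and eicosanoid list in SS, 0 were called, and likewise 0 of 5 of glucocorticoid action. Nr3c1, the glucocorticoid receptor, had -0.17, -0.18 and -0.09 in SS and 0.095, 0.13 and 0.175 in strain 13 (adjusted p = 0.226 and 0.553 in limma's fit). Plat, the tissue plasminogen activator that binds Anxa2, had 0.45, 0.19 and 0.335 for 13 against SS on HS and 0.21, 0.145 and 0.69 on LS (adjusted p = 0.0944 and 0.112 in limma's fit). All 6 were above 0 while Anxa2 was below 0 in 5 of its 6. Of the plasminogen activation and coagulation list, 0 of 4 tested genes were called on HS and 0 of 3 on LS. The other genes did not share the pattern of Plat, with means of 0.07 on HS and -0.04 on LS for Plau. F2r had 0.16 and -0.06, and F2 had -0.24 on HS. Of 7 tested genes of membrane trafficking and repair in SS, 0 were called (median 0.01).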

How the data were processed

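The deposited values are log ratios of 2 channels (1 value per probe and array, scale not stated) made by the authors. The sources used here do not state the log base, the background correction or the normalization. Array means lay within 0.0049 of 0, and values were used as deposited. All other signals of the arrays were not used here.

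Groups, replicates and orientations come from the titles. Groups were first entered in accession order, and a later reading of every title by pattern gave the same group for 24 of 24 arrays, and the same replicate and orientation for the 23 numbered ones. The 1 array without a number was taken as replicate 1, forward, by elimination. The titles of 19 arrays name the strain.

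Forward and dye-swap arrays of a replicate were averaged to 12 RNA pairs, with no change of sign to the dye-swap values. limma 3.58.1 in R 4.3.3 (lmFit, eBayes) fitted 4 group means, each tested against 0 (two-sided) with Benjamini-Hochberg adjustment over all probes with a value in at least 2 of 3 replicates. The design assumed a log2 scale, which the sources used here do not state. The interaction averaged the diet-array and strain-array estimates. The scripts were tested on simulated data. Same-numbered deviations of the 2 diet comparisons correlated at 0.213, 0.169 and 0.209. For the diet comparison in SS against the strain comparison on HS, which both hold SS on HS, they correlated at -0.628, -0.563 and -0.294. The fit treats all 12 pairs as independent and takes 1 estimate of the spread per probe from all 4 groups. No correlation of differently numbered deviations was computed, so whether the numbers pair these samples was not tested.

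Named were all annexins with values, the 3 probes most like each, and list genes a result turns on, the last chosen after their values were seen. Members and lists were chosen with earlier results of these data known. Symbols were updated by gene identifier through RefSeq GRCr8, which left all 5 unchanged. Python 3.11.15, pandas 2.3.3 and matplotlib 3.10.9 were used.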

Additional observations from a re-analysis of the deposited data

How the results depend on the processing

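Of 391 annexin values under alternatives, 354 kept their direction and side of the threshold, 11 newly passed it, 0 lost a call and 26 turned sign. Leaving out 1 replicate gave 0 to 57 probes called in the SS diet comparison, 0 to 1 on LS, 0 to 19 on HS and 0 to 10 for the interaction, and 0 to 1 annexins on LS. The same turned small means: Anxa4 ranged from -0.05 to 0.19 in SS, -0.005 to 0.18 in 13, -0.0675 to 0.0475 on HS and -0.12 to 0.15 for the interaction. Anxa3 ranged from -0.045 to 0.115 in SS, -0.105 to 0.0025 on HS and -0.13 to 0.05 for the interaction. Anxa6 ranged from -0.25 to 0.02 in SS, -0.0325 to 0.115 in 13 and -0.035 to 0.22 on LS, and Anxa2 from -0.14 to 0.21 for the interaction. With the replicate block 40 probes were called on HS and 8 for the interaction; it changed no annexin call. Same-numbered deviations of the 2 strain comparisons correlated at 0.0601, 0.401 and -0.00867. With equal array spread, 23 were called on LS (1 annexin), 13 on HS and 0 for the interaction. With probes in all 12 pairs, 58 were called in SS, 35 on LS (1 annexin) and 39 for the interaction. Forward arrays alone gave 118 in SS (1 annexin), 15 in 13 (1), 70 on LS, 127 on HS and 13 for the interaction, and turned Anxa4 in SS (-0.11), Anxa3 on LS (-0.025), on HS (0.11) and for the interaction (0.0842), and Anxa1 on LS (0.21) and on HS (0.16). Dye-swap arrays alone gave 62 in SS, 3 in 13, 51 on LS (1), 411 on HS (2) and 12 for the interaction, and turned Anxa6 in SS (0.04), Anxa1 in 13 (-0.26) and for the interaction (-0.0867), Anxa4 on HS (0.23) and Anxa2 for the interaction (-0.06). The ordinary per-probe test called 26 on LS and 50 on HS. Without the array with the conflicting title, 60 were called in SS and 12 for the interaction, and Anxa4 in SS was 0. The random block gave 98 on LS (1 annexin), 191 on HS (1) and 42 for the interaction, with Anxa4 on HS at 0.0085. Groups fitted alone gave 0 in SS and 0 on HS. For the interaction, diet arrays alone gave 0, with Anxa3 at 0.01 and Anxa1 at -0.06, strain arrays alone 0, and the 3 per-replicate values 0. Of the settings chosen after seeing the data, pairs with both orientations gave 61 in SS, 3 on LS and 29 for the interaction, leaving out the sparsest array gave 2 for the interaction, and orientation as a term gave 126 in SS, 13 in strain 13, 65 on LS, 195 on HS (1 annexin) and 58 for the interaction. The cause of these changes was not tested. Turning every sign at once leaves all counts as they are and exchanges higher for lower. Intensities were not used, so what dim signal limits was not tested.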
